A study of Rattus norvegicus with 30 samples.

Results

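Endothelin system genes are the genes of the endothelin peptides, of their receptors and of the enzyme that activates the peptides. A list of 4 was followed, Edn1, Ednra, Ednrb and Ece1, by the gene symbol of the array annotation and with 1 probe set per gene. Of the 4, 2 were found among 14506 genes with a probe set of a single symbol: Edn1 (probe set 10797857), the gene of the endothelin-1 precursor, and Ece1 (probe set 10873203), the gene of endothelin converting enzyme 1. The receptor genes Ednra and Ednrb were not analysed here.

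The study used primary cultures of rat inner medullary collecting duct (IMCD) cells, the epithelium of the last stretch of the renal tubule, kept at different osmolalities of the medium. Total RNA was hybridised to 30 whole-transcript arrays, 3 in each of 10 groups. In 4 groups the cells were moved from 300 to 600 mosmol/kg and collected 3, 12, 24 or 48 h later. Further cells went from 600 to 900 mosmol/kg and were collected at 12 or 24 h (2 groups), or made a return from 900 to 300 mosmol/kg for 24 h (1 group). The remaining 3 groups were cultivated steadily at 300, 600 or 900 mosmol/kg. The treatment field of all 30 samples names 5 µM cyclosporin A, an inhibitor of the phosphatase calcineurin, while no sample title mentions it. By that field no group lacks the agent. The titles number the arrays of the groups moved to 900 or returned to 300 mosmol/kg as 1, 2 and 9. Those of the other groups are numbered 1, 2 and 3, and the titles do not explain the number 9. Nothing in the labels tells whether the 3 arrays of a group stand for separate animals or dishes, so each p-value speaks of the spread between arrays, and that spread may be technical. The cells are a primary culture and not a clonal line, and several cell types of the inner medulla can be present in it.

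Endothelin-1 is made as a long precursor, cut first by furin-type proprotein convertases to an inactive peptide and then by endothelin converting enzyme to the active form. The active peptide binds 2 G protein-coupled receptors, type A, known for contraction of vascular smooth muscle, and type B, the main type of the collecting duct. In the collecting duct, endothelin-1 is known as a local peptide that acts through the type B receptor and nitric oxide to lower sodium and water reabsorption, and the inner medulla is known as one of the sites with the most endothelin-1 in the kidney.

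The upstream sequences of both genes are printed because their levels varied together over the groups (below). Both were found in the RefSeq promoter table of the GRCr8 assembly, and each is the 250 bases before the annotated start of the gene, read 5′ to 3′ along the strand of the gene. Capitals mark the matches to the motifs searched on both strands. The Edn1 window lies at chr17:22666688-22666937 on the minus strand, next to the gene at 22660799 to 22666687, and the Ece1 window lies at chr5:155360781-155361030 on the plus strand, next to the gene at 155361031 to 155462723.
Edn1: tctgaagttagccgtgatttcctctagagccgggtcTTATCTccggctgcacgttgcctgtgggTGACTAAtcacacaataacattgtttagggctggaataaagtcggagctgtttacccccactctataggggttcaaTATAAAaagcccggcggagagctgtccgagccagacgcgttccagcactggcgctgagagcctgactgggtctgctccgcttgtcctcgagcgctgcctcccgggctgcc
Ece1: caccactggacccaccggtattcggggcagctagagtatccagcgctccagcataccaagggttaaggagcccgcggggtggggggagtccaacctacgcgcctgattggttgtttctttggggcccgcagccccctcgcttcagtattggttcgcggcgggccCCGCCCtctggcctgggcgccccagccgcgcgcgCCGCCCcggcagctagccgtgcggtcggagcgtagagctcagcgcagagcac
The Edn1 window held a TATA box (TATAAA) 110 to 105 bases before the annotated start, a match to the AP-1 letters TGACTAA at 186 to 180 bases and a GATA match (AGATAA, here on the opposite strand and so printed as TTATCT) at 214 to 209 bases. Of all 33469 promoter windows of this length, 12.9% held the TATA box, 1.99% the AP-1 letters and 10.3% the GATA letters. The Ece1 window held none of these and held the GC box GGGCGG on the opposite strand at 86 to 81 and at 52 to 47 bases before the start, a motif present in 30.5% of windows. The Ece1 window was 69.2% G and C with 25 CpG dinucleotides, the Edn1 window 56.4% with 15, and the medians over all windows were 51.2% and 5. The letters GGAAAA (NFAT core, in 21.6% of windows), TGACTCA (a second AP-1 form, in 4.05%) and the tonicity element TonE (in 5.17%) were in neither window, which says only that these letters are absent from these 250 bases.

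Levels below are the authors' log2 values from robust multi-array average (RMA), so a difference of 1 is a 2-fold change of signal. Array medians lay between 5.63 and 5.76, and the median change over all genes stayed within −0.04 and 0.04 in each comparison. Arrays of 1 group correlated at 0.991 to 0.998 across genes. At 3 h after the step to 600, array 3 stood apart, with a median absolute difference of 0.205 and 0.198 from arrays 1 and 2, against 0.122 between those. Changes are the first named group minus the second, with the standard error (SE) of a limma fit over all 30 arrays, and a gene was called at an adjusted p under 0.05 (Benjamini-Hochberg over 14506 genes). The comparisons share arrays: steady 300, steady 600 and steady 900 each serve in several.

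Edn1 varied more over the 10 groups than most genes. Its group means spanned 3.11 log2 units, an 8.61-fold range, which was wider than the span of 97.9% of genes. Its single arrays ran between 6.31 and 9.90. Ece1 spanned 0.95 log2 units, a 1.93-fold range, wider than in 69.9% of genes, with arrays between 7.76 and 8.92. The median span over all genes was 0.66. Both differed among the 10 groups by the moderated F test of limma, with an adjusted p of 4.79e-21 for Edn1 and 9.92e-11 for Ece1, as did 73.7% of all genes. Over the 10 group means the 2 genes correlated at r = 0.87 (Spearman 0.78) and over the 30 arrays at r = 0.84, values that are given as a description since the genes share the same arrays.

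**Figure D1:**
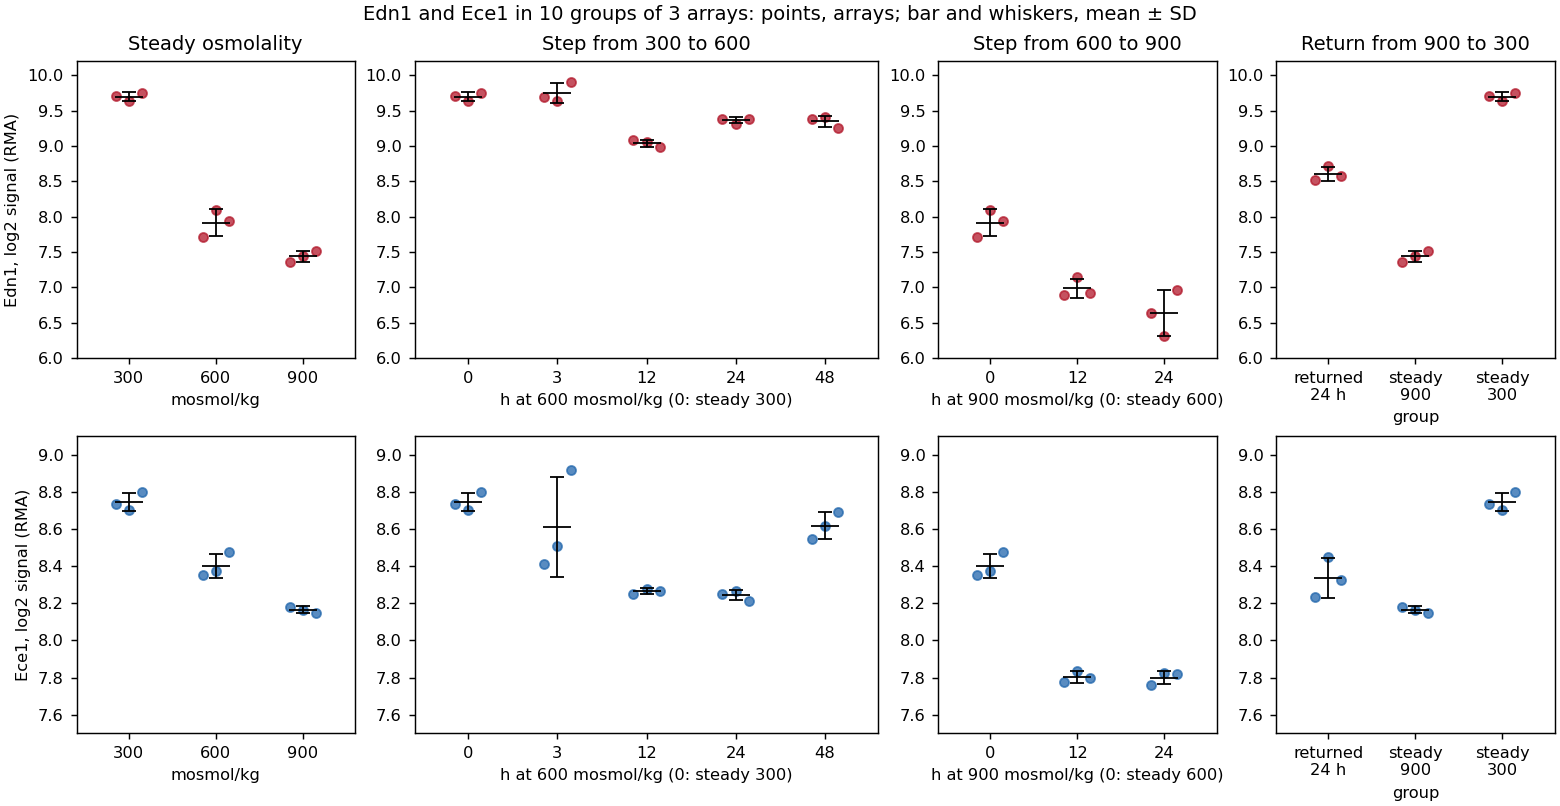
Log2 signal of Edn1 (top, red) and Ece1 (bottom, blue) in every array, by osmolality in steady culture, by hours after the steps from 300 to 600 and from 600 to 900 mosmol/kg, and after the return from 900 to 300 mosmol/kg. Points are arrays, horizontal bars with whiskers are the mean ± SD of 3 arrays, and the vertical axes do not start at 0. Edn1 lies between 6.31 and 6.96 at 24 h after the step from 600 to 900 and between 7.71 and 8.09 in steady 600.

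In steady culture both genes were lower at higher osmolality. Edn1 was 4.79-fold lower at 900 than at 300 mosmol/kg, and most of that difference lay between 300 and 600. Ece1 was 1.50-fold lower at 900 than at 300.

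Edn1 measured 9.71, 9.63 and 9.75 in the 3 arrays of steady 300, 7.71, 8.09 and 7.94 in steady 600, and 7.36, 7.44 and 7.51 in steady 900. No array overlapped with another group, and the order by osmolality held for every array. Here and below, the share of all genes whose groups do not overlap was not counted, so such separation is only a description. The change of Edn1 in steady 600 against steady 300 was −1.78 ± 0.11 (SE, n = 3 each; 95% interval −2.02 to −1.55; limma adjusted p = 2.39e-13). In steady 900 against steady 300 it was −2.26 ± 0.11 (−2.49 to −2.03; limma adjusted p = 3.15e-16), and in steady 900 against steady 600 it was −0.48 ± 0.11 (−0.71 to −0.24; limma adjusted p = 0.00194). Both genes were called lower in each of these 3 comparisons, where 13.4%, 22.3% and 12.9% of all genes were called lower in the order just given.

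Ece1, the membrane metalloprotease that makes active endothelin, measured 8.74, 8.70 and 8.80 in steady 300, 8.35, 8.38 and 8.47 in steady 600, and 8.18, 8.17 and 8.15 in steady 900. Ece1 groups did not overlap either, with smaller steps than those of Edn1. Ece1 changed by −0.35 ± 0.09 in steady 600 against steady 300 (limma adjusted p = 0.00282) and by −0.58 ± 0.09 in steady 900 against steady 300 (2.01e-06). Its change in steady 900 against steady 600 was −0.24 ± 0.09 with a limma adjusted p of 0.0490. That last call was lost without any one of the 6 arrays compared, at values between −0.26 and −0.20 and adjusted p-values between 0.0615 and 0.184, and also with each array centred on its median or with cyclic loess.

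After the step from 300 to 600 mosmol/kg, neither gene was called at 3 h, both were lower at 12 and 24 h, and Edn1 stayed far above its level in steady 600 at 48 h. Edn1 was lowest at 12 h, 1.58-fold under steady 300, and was higher again at 24 h, though that call was lost under many alternatives (below). Ece1 was low at 12 and 24 h and higher at 48 h than at 24 h.

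At 3 h Edn1 measured 9.69, 9.64 and 9.90, against 9.71, 9.63 and 9.75 in steady 300, a change of 0.04 (95% interval −0.19 to 0.28; limma adjusted p = 0.787). Ece1 measured 8.41, 8.51 and 8.92 at 3 h, against 8.74, 8.70 and 8.80 in steady 300, a change of −0.13 (−0.31 to 0.05; limma adjusted p = 0.232). The groups overlapped for both genes, and 41.6% of all genes were called in this comparison. With quantile or cyclic loess normalization the change of Ece1 turned positive and was not called either. The high Ece1 value at 3 h is from array 3, the one that stood apart, and without it the change of Ece1 was −0.29 with a limma adjusted p of 0.00120. For Edn1 the change without that array was −0.04.

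At 12 h Edn1 measured 9.08, 9.05 and 8.98, below every array of steady 300, with a change of −0.66 ± 0.11 (−0.89 to −0.43; limma adjusted p = 3.38e-05). Ece1 measured 8.25, 8.28 and 8.27 at 12 h and changed by −0.48 ± 0.09 (1.40-fold lower; limma adjusted p = 6.42e-05). Both genes were thus called lower at 12 h, as were 22.6% of all genes. Against 3 h, Edn1 changed at 12 h by −0.70 (limma adjusted p = 1.11e-05) and Ece1 by −0.35 (0.00186), where 17.8% of genes were called lower. The Ece1 call was lost in a fit of the compared arrays alone (adjusted p = 0.0805).

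At 24 h Edn1 measured 9.38, 9.31 and 9.39, above the 3 arrays of 12 h and below those of steady 300. Its change was 0.32 against 12 h (limma adjusted p = 0.0346; 17.5% of genes called higher) and −0.34 against steady 300 (limma adjusted p = 0.0314; 13.0% called lower). Both of these Edn1 calls were close to the threshold, and the changes stayed similar when an array was left out. The first was lost without any one of its 6 arrays, at 0.30 to 0.35 and adjusted p-values up to 0.109, and also with quantile or cyclic loess normalization, and the second was lost without 5 of its 6 arrays, at −0.35 to −0.31 and adjusted p-values up to 0.102 (steady 300 replicates 1 and 3, and each replicate of 24 h), and also with each array centred on its median. Ece1 measured 8.25, 8.27 and 8.21 at 24 h, a change of −0.50 ± 0.09 against steady 300 (1.42-fold lower; limma adjusted p = 5.47e-05) that was called without each array in turn. Against 12 h its change was −0.02 (limma adjusted p = 0.898).

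At 48 h Edn1 measured 9.38, 9.41 and 9.25, against 7.71, 8.09 and 7.94 in steady 600 and 9.71, 9.63 and 9.75 in steady 300. It was therefore 2.70-fold above the steady culture of the same osmolality, with a change of 1.43 ± 0.11 (1.20 to 1.67; limma adjusted p = 4.20e-11; 9.47% of genes called higher). Its change against steady 300 was −0.35 (limma adjusted p = 0.0256; 12.0% called lower), a call that was lost without steady 300 replicate 1 or 3 or without replicate 1 or 3 of 48 h, at −0.37 to −0.30. Against 24 h the change of Edn1 was −0.01 (−0.25 to 0.22; limma adjusted p = 0.992).

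Ece1 measured 8.55, 8.62 and 8.69 at 48 h, above every array of 24 h, with a change of 0.37 ± 0.09 (0.19 to 0.56; limma adjusted p = 0.0110). In that comparison only 1.88% of genes were called higher and 2.79% either way. The call was lost without replicate 3 of 24 h (0.36, adjusted p = 0.0575) or of 48 h (0.34, adjusted p = 0.0801). Ece1 at 48 h did not overlap with steady 300 or steady 600, but neither difference was called: −0.13 against steady 300 (limma adjusted p = 0.350) and 0.22 against steady 600 (limma adjusted p = 0.0785). Both were called with array weights, and the difference from steady 600 under further settings too.

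After the step from 600 to 900 mosmol/kg both genes were lower at 12 and 24 h, and at 24 h both were below their level in steady 900. Edn1 was 2.43-fold lower at 24 h than in steady 600, and this was its lowest mean in the 10 groups. Ece1 was 1.52-fold lower at 24 h than in steady 600.

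Edn1 measured 6.90, 7.14 and 6.92 at 12 h and 6.63, 6.31 and 6.96 at 24 h, against 7.71, 8.09 and 7.94 in steady 600. All 6 stepped arrays lay below the 3 arrays of steady 600 and below the 3 of steady 900 (7.36, 7.44 and 7.51). Against steady 600 the change was −0.93 ± 0.11 at 12 h (−1.16 to −0.69; limma adjusted p = 1.29e-07) and −1.28 ± 0.11 at 24 h (−1.51 to −1.04; limma adjusted p = 5.83e-10). Against steady 900 it was −0.80 ± 0.11 at 24 h (1.74-fold lower; limma adjusted p = 5.37e-06). The 12 and 24 h groups overlapped, and the change of Edn1 between them, −0.35 with a limma adjusted p of 0.0178 (11.5% of genes called lower), was lost without replicate 2 of 12 h (−0.27, adjusted p = 0.110) or replicate 2 of 24 h (−0.19, adjusted p = 0.220), and in a fit of the compared arrays alone.

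Ece1 measured 7.78, 7.84 and 7.80 at 12 h and 7.76, 7.82 and 7.82 at 24 h, against 8.35, 8.38 and 8.47 in steady 600. These 6 arrays lay below all other arrays of the series for Ece1. The change against steady 600 was −0.60 ± 0.09 at both times (limma adjusted p = 2.21e-06 at 12 h and 3.54e-06 at 24 h), and against steady 900 at 24 h it was −0.37 ± 0.09 (limma adjusted p = 0.00313). Both genes were called lower in these comparisons, where 25.3% of genes were called lower at 12 h against steady 600, 14.7% at 24 h against steady 600 and 8.83% at 24 h against steady 900.

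Edn1 fell more in the 24 h after the step from 600 to 900 than in the 24 h after the step from 300 to 600. The change after the higher step minus the change after the lower step was −0.94 ± 0.16 (SE; −1.27 to −0.61; limma adjusted p = 0.000108), where 12.9% of genes were called either way and 5.46% in this direction. At 12 h the same difference was −0.27 for Edn1 (−0.60 to 0.06; limma adjusted p = 0.323; 13.4% of genes called either way). For Ece1 the difference was −0.12 at 12 h (−0.37 to 0.14; limma adjusted p = 0.628) and −0.10 at 24 h (−0.35 to 0.15; limma adjusted p = 0.697). Both steps are 300 mosmol/kg in size, though they start from different levels of both genes.

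**Figure D2:**
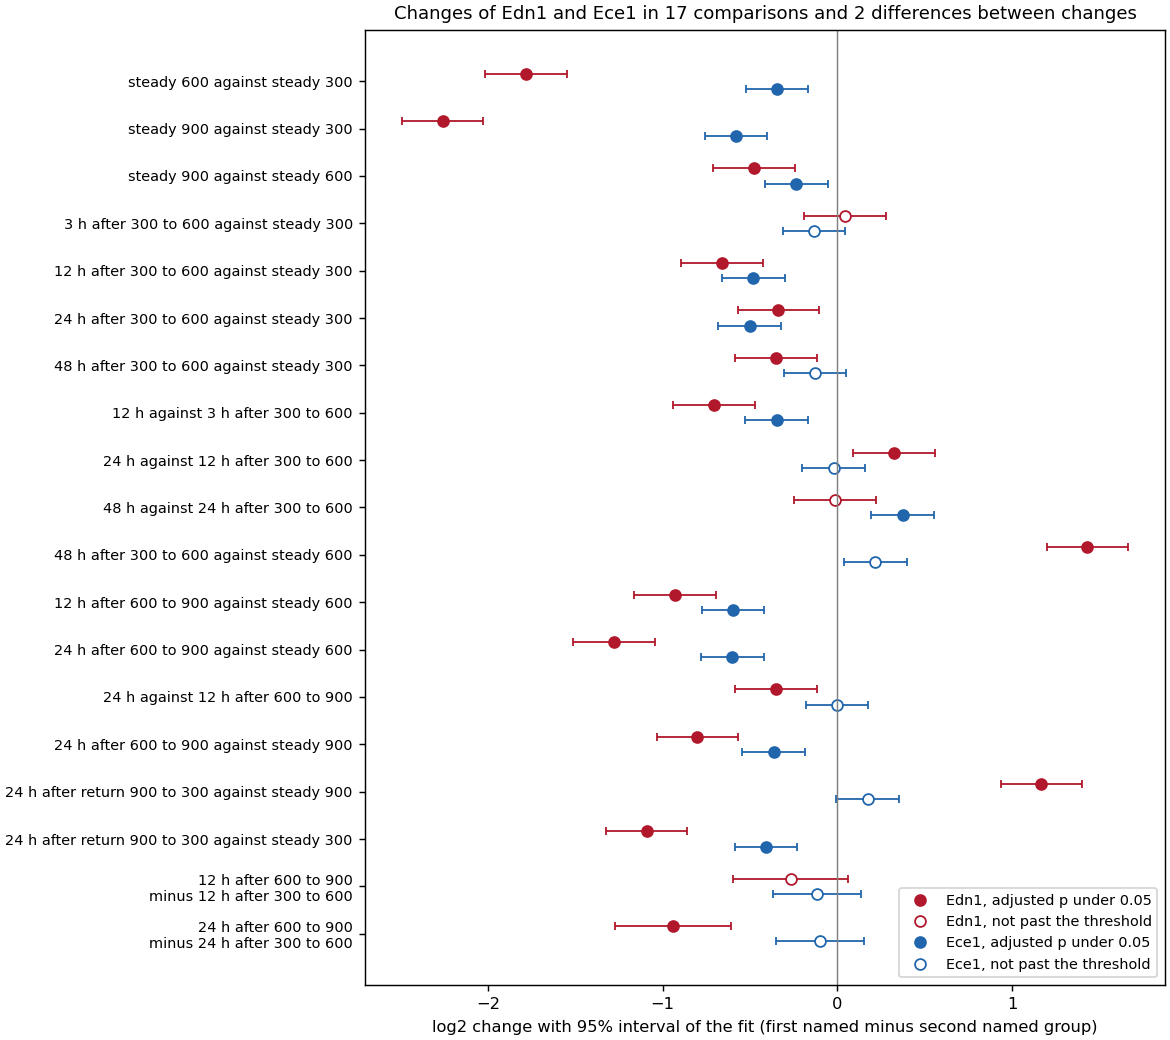
Log2 change of Edn1 (red) and Ece1 (blue) with its 95% interval in 17 comparisons between groups and in 2 differences between changes, each as the first named minus the second named group. Filled points have an adjusted p under 0.05. Edn1 lies at −2.26 in steady 900 against steady 300 and at 1.43 at 48 h after the step from 300 to 600 against steady 600.

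At 24 h after the return from 900 to 300 mosmol/kg, Edn1 was higher than in steady 900 and lower than in steady 300. Ece1 was lower than in steady 300 and was not called against steady 900. Edn1 measured 8.52, 8.71 and 8.58 in the returned cells, against 7.36, 7.44 and 7.51 in steady 900 and 9.71, 9.63 and 9.75 in steady 300. It was 2.25-fold above steady 900 (1.17 ± 0.11; 0.93 to 1.40; limma adjusted p = 1.99e-09; 19.3% of genes called higher) and 2.13-fold below steady 300 (−1.09 ± 0.11; −1.33 to −0.86; limma adjusted p = 3.33e-09; 22.2% called lower), with no overlap on either side.

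Ece1 measured 8.24, 8.45 and 8.33 in the returned cells, against 8.18, 8.17 and 8.15 in steady 900 and 8.74, 8.70 and 8.80 in steady 300. The returned arrays lay above those of steady 900, but the change of 0.17 was not called (−0.01 to 0.35; limma adjusted p = 0.129), except with array weights. Ece1 was 1.33-fold below steady 300 (−0.41 ± 0.09; limma adjusted p = 0.000293).

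By mean level, Edn1 ran from 3 h after the step to 600 (9.74 ± 0.14, SD, n = 3) through steady 300 (9.70 ± 0.06), 24 h (9.36 ± 0.04), 48 h (9.35 ± 0.08) and 12 h (9.04 ± 0.05) after that step, the returned cells (8.61 ± 0.10), steady 600 (7.91 ± 0.19), steady 900 (7.44 ± 0.08) and 12 h (6.99 ± 0.14) to 24 h (6.64 ± 0.32) after the step to 900. Neighbours in this order overlapped in 3 places: 3 h with steady 300, 24 h with 48 h, and the pair after the step to 900. All 3 arrays of every other group lay clear of the next group.

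Ece1 ran from steady 300 (8.75 ± 0.05) through 48 h (8.62 ± 0.07) and 3 h (8.61 ± 0.27) after the step to 600, steady 600 (8.40 ± 0.06), the returned cells (8.34 ± 0.11), 12 h (8.27 ± 0.01) and 24 h (8.24 ± 0.03) after the step to 600, steady 900 (8.17 ± 0.02) and 12 h (7.80 ± 0.03) to 24 h (7.80 ± 0.04) after the step to 900. Only 3 of its neighbouring pairs did not overlap: steady 300 with 48 h, 24 h after the step to 600 with steady 900, and steady 900 with 12 h after the step to 900. The order of the groups in the middle of the Ece1 range is thus not set beyond the spread of the arrays.

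Among the other genes of the pathway, 57 were measured in 6 lists by role. In steady 600 against steady 300, 13 of the 57 were called higher and 15 lower, beside 13.7% and 13.4% of all genes, with a median change of −0.07 against 0.0059 over all genes. In steady 900 against steady 300, 18 were called higher and 21 lower, beside 20.2% and 22.3% of all genes, with a median change of 0.0055 against −0.0032 over all genes. The lists were chosen with earlier results of these data known, and these counts are a description.

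Edn2 and Edn3, the genes of the other endothelin peptides, were dim, with group means close to each other. Group means of Edn2 ran between 5.26 and 5.48 and those of Edn3 between 4.54 and 4.78. Neither passed the test for a difference among the groups (limma moderated F, adjusted p = 0.719 for Edn2 and 0.574 for Edn3), and neither was called in any comparison. In steady 900 against steady 300 the change of Edn2 was 0.09 (−0.17 to 0.35) and that of Edn3 0.05 (−0.20 to 0.29).

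Of the 8 measured genes of peptide processing and breakdown, 1 was called higher and 3 lower in steady 900 against steady 300, beside 20.2% and 22.3% of all genes. Mme encodes neprilysin, a membrane peptidase known to degrade endothelin-1 among other peptides. Its arrays measured 8.94, 9.15 and 9.08 in steady 300, 7.58, 7.61 and 7.62 in steady 600 and 5.87, 5.99 and 6.17 at 900. Mme was thus 8.28-fold lower in steady 900 than in steady 300 (−3.05; limma adjusted p = 8.04e-19). At 24 h after the step from 600 to 900 it changed by −1.69 (limma adjusted p = 5.08e-12), and in the returned cells, at 6.98 ± 0.15 against 6.01 ± 0.15 in steady 900, it was higher by 0.97 (limma adjusted p = 1.26e-07). At 12 h after the step from 300 to 600, where Edn1 was lower, the change of Mme was −0.19 and was not called (limma adjusted p = 0.240). At 24 and 48 h after that step Mme was lower than in steady 300, with changes of −0.51 (limma adjusted p = 0.00186) and −0.46 (0.00509).

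Furin, the gene of a convertase of the first cut, moved the other way. It was higher by 0.71 ± 0.10 in steady 600 (limma adjusted p = 1.22e-06) and by 0.74 ± 0.10 in steady 900 (2.84e-07), both against steady 300, and lower in the returned cells than in steady 900 (log2 change −0.44; limma adjusted p = 0.000709). Pcsk6, another convertase gene, changed by −0.70 in steady 900 against steady 300 (limma adjusted p = 3.88e-06). The genes of precursor cutting, activation and breakdown were thus not called in 1 direction.

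Of the 5 measured genes of receptor desensitisation, 2 were called higher and 2 lower in steady 900 against steady 300, beside 20.2% and 22.3% of all genes. Arrb1, the gene of beta-arrestin 1, which binds phosphorylated receptors, was higher by 1.49 ± 0.07 (limma adjusted p = 2.39e-16) and lower in the returned cells than in steady 900 (log2 change −0.81; limma adjusted p = 5.30e-10). Of the 14 genes of G protein and phospholipase C signalling, 5 were called higher and 4 lower in steady 900 against steady 300, beside the same shares. In the returned cells against steady 900, 0 were called higher and 8 lower, beside 19.3% and 18.5% of all genes. Itpr2 and Itpr3, genes of inositol trisphosphate receptors that release stored calcium, were higher in steady 900 than in steady 300 by 1.50 (limma adjusted p = 1.91e-14) and 1.32 (2.55e-12). Both were lower in the returned cells than in steady 900, with changes of −1.26 and −0.84.

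All 9 measured genes of nitric oxide and cGMP were called in steady 900 against steady 300, 3 higher and 6 lower, with a median change of −0.49, where 42.4% of all genes were called either way. Nos1, the gene of neuronal nitric oxide synthase, measured 5.36, 5.17 and 5.39 in steady 300, 6.65, 6.45 and 6.53 in steady 600 and 7.83, 7.99 and 7.65 in steady 900. These groups did not overlap, and Nos1 was 5.73-fold higher in steady 900 than in steady 300 (2.52 ± 0.10; limma adjusted p = 1.85e-18), the direction opposite to that of Edn1. In the returned cells Nos1 averaged 5.51 ± 0.09, against 7.82 ± 0.17 in steady 900, a change of −2.31 (4.97-fold lower; limma adjusted p = 2.97e-16).

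Gucy1a2 and Gucy1b1, genes of subunits of the guanylate cyclase that nitric oxide activates, were lower in steady 900 than in steady 300, with log2 changes of −1.94 and −1.87 (limma adjusted p = 1.04e-15 and 4.09e-16). Nos2, the inducible synthase known from activated macrophages among other cells, changed by −2.17 ± 0.20 in steady 600 and in steady 900 against steady 300 (limma adjusted p = 5.26e-10 and 2.05e-10), beside leukocyte markers that were also lower there (below). At 24 h after the step from 300 to 600, where leukocyte markers were lower too, Nos2 measured 7.61, 7.48 and 7.68, against 7.43, 7.33 and 7.26 in steady 300, and was not called (0.25; limma adjusted p = 0.433). Nos3, the synthase named for the endothelium, was higher by 0.77 in steady 900 against steady 300 (limma adjusted p = 1.27e-07) and changed by −0.76 at 12 h after the step from 300 to 600 (4.33e-07), when endothelial markers were lower as well (below). The 3 synthase genes thus had 3 different courses. The part of leukocytes and endothelial cells in the courses of Nos2 and Nos3 was not tested. In steady 900 against steady 300, smooth muscle and pericyte markers and most fibroblast markers were lower, as were Gucy1a2 and Gucy1b1 (below). The part of these cell types in the 2 Gucy genes was not tested either.

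Of 19 measured genes listed as regulators of Edn1 transcription, 7 were called higher and 6 lower in steady 900 against steady 300, beside 20.2% and 22.3% of all genes, and 1 higher and 9 lower in the returned cells against steady 900, beside 19.3% and 18.5%. Gata2, whose family binds the GATA letters printed in capitals in the Edn1 window, was higher by 1.71 ± 0.11 in steady 900 than in steady 300 (limma adjusted p = 4.28e-14). Fos, a part of the AP-1 factor, was higher by 1.25 (limma adjusted p = 8.92e-11), and Nr3c2, the mineralocorticoid receptor gene, by 2.01 ± 0.13 (1.62e-13). All 3 were lower in the returned cells than in steady 900, with changes of −0.90 for Gata2, −0.96 for Fos and −0.62 for Nr3c2. Their courses were opposite to that of Edn1 in both of these comparisons, but not in every other. At 12, 24 and 48 h after the step from 300 to 600, Gata2 averaged 6.45, 6.52 and 6.61. This was below its 6.91 in steady 300, the direction of Edn1. The call of Gata2 at 48 h was lost without any one of the arrays compared, with limma adjusted p-values up to 0.151. It was also lost with quantile normalization or with each array centred on its median. Nr3c2 was higher at these times, at 5.66, 5.65 and 5.67 against 5.23. These 3 calls of Nr3c2 were lost without steady 300 replicate 1 (limma adjusted p = 0.0617, 0.106 and 0.0797). Fos arrays lay below those of steady 300 at 24 and 48 h (means 6.21 and 6.31) and overlapped with them at 12 h (mean 6.77). Nfkb1, a subunit gene of NF-kB, changed by −1.09 in steady 900 against steady 300 (limma adjusted p = 4.70e-14) and by 0.14 in the returned cells against steady 900 (0.121). Klf4 was higher at 12 h after the step from 300 to 600 by 1.30 (limma adjusted p = 5.08e-12), while its change in steady 900 against steady 300 was 0.05 (0.704).

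**Figure D3:**
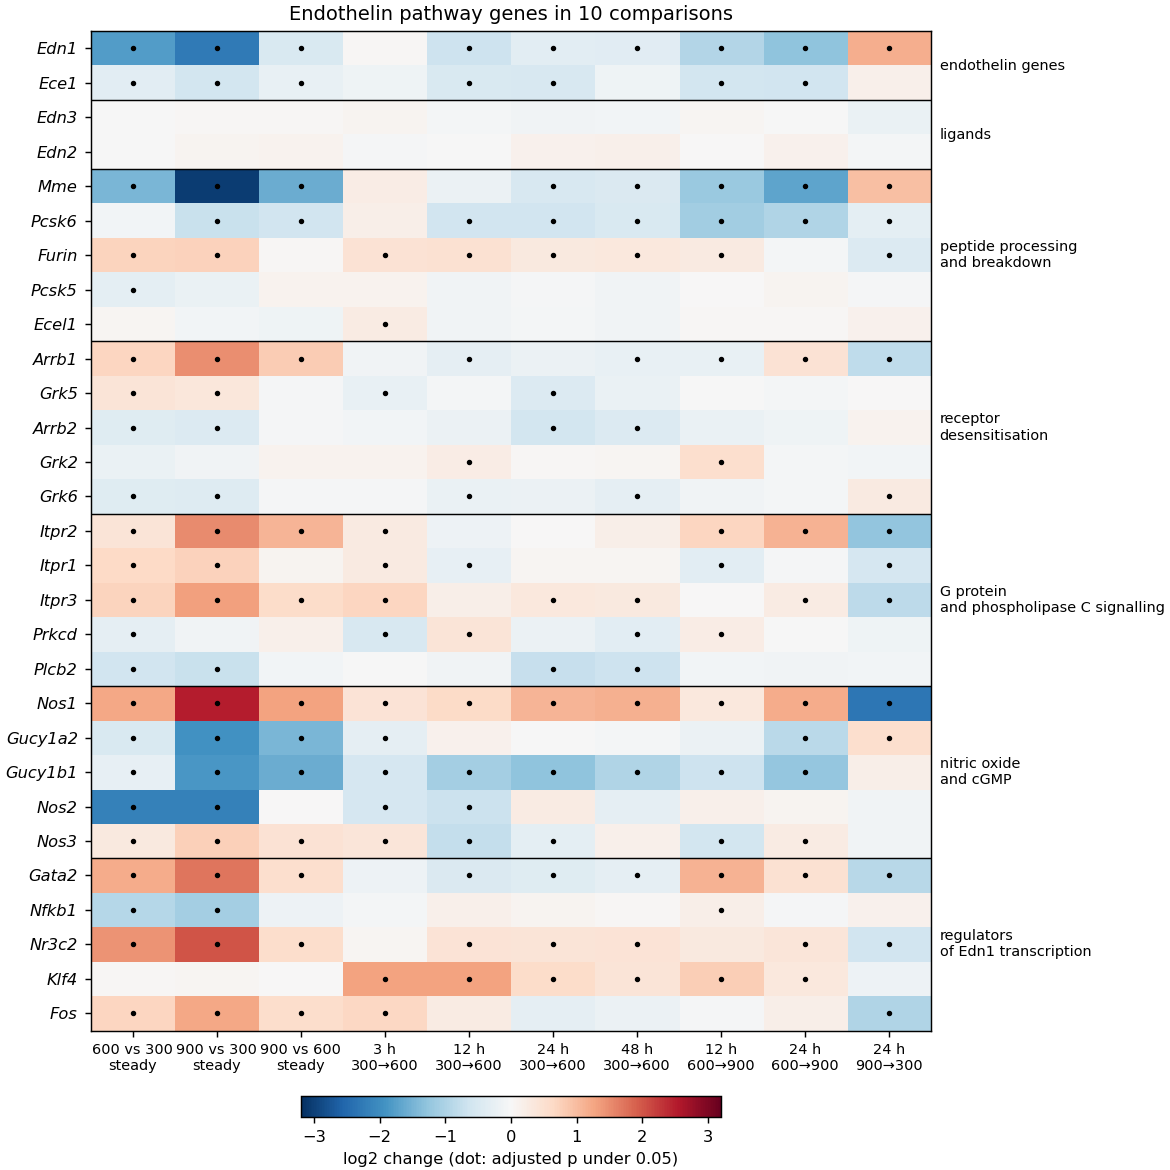
Log2 change (colour) of Edn1, Ece1 and up to 5 genes of each role in 10 comparisons, with steady groups compared as named, steps from 300 to 600 against steady 300, steps from 600 to 900 against steady 600 and the return against steady 900. Dots mark an adjusted p under 0.05. Edn1 and Mme are blue in the steady comparisons and red after the return, and Nos1 is the reverse.

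Markers of the collecting duct and of other cell types also differed between the groups, and in bulk RNA fewer cells of a type and less RNA per cell cannot be told apart. The 8 epithelial markers averaged 10.89 in steady 300, 11.09 in steady 600 and 11.10 at 900 mosmol/kg. The 10 principal cell markers averaged 5.49, 8.15 and 9.21 in the same groups, with Aqp2, the vasopressin-regulated water channel, at 5.61, 10.07 and 12.04, so that the defining marker of the labelled cell type was dim at 300 mosmol/kg. Scnn1b and Scnn1g, subunits of the epithelial sodium channel, were dim throughout. No marker was listed at 0 in any group. That does not show that each was detected, since the lowest value of any probe set in the series was 1.72.

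The 9 leukocyte markers, as a sum of linear signals, ran between 5373 and 5747 in steady 300, between 2312 and 2360 in steady 600 and between 1898 and 2004 in steady 900. Of these 9, 8 were called lower in steady 600 and 9 in steady 900, both against steady 300. Edn1 was called lower too, as were 13.4% and 22.3% of all genes. The 8 smooth muscle and pericyte markers summed to 13905 to 14245, 11075 to 12578 and 3540 to 3783 in the same order, and all 8 were called lower in steady 900. The 9 fibroblast markers summed to 9125 to 9377, 5959 to 7051 and 1282 to 1304. The part of these lists in the steady differences of Edn1 and Ece1 was not tested.

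In other comparisons these lists moved with Edn1 in some and not in others. After the step from 300 to 600, 7 of 9 leukocyte and 8 of 8 smooth muscle and pericyte markers were called lower. This held at 24 h and at 48 h against steady 300, as for Edn1, beside 13.0% and 12.0% of all genes. Of 9 fibroblast markers, 6 were called lower at 24 h and 7 at 48 h. Against steady 600, 8 of 9 leukocyte markers were called lower at 12 h and at 24 h after the step from 600 to 900. So were 7 of 8 smooth muscle and pericyte markers at 12 h and 8 at 24 h, and both endothelin system genes at both times. Beside these, 25.3% of all genes were called lower at 12 h and 14.7% at 24 h. At 12 h after the step from 300 to 600 the leukocyte sum ran between 4611 and 5975, with 2 markers called higher and 0 lower against steady 300, while Edn1 was called lower. Of the other lists, 4 of 8 smooth muscle and pericyte and 4 of 9 fibroblast markers were called lower at that time and 0 higher. Edn1 was called lower too, as were 22.6% of all genes. In the returned cells the leukocyte sum was 1322 to 1426, against 1898 to 2004 in steady 900, with 6 markers called lower, while Edn1 was called higher. The smooth muscle and pericyte sum was 3932 to 4015 in the returned cells, against 3540 to 3783 in steady 900, with 1 marker called higher. Of 9 fibroblast markers 2 were called higher and 2 lower there, and of 10 principal cell markers 0 higher and 8 lower. Of 9 endothelial markers 3 were called higher and 1 lower, with a median change of 0.15. The endothelial sum was 3551 to 3920 in the returned cells, against 3947 to 4167 in steady 900. Of all genes, 19.3% were called higher and 18.5% lower. At 24 h after the step from 600 to 900 the smooth muscle and pericyte sum was 4105 to 4610, against 3540 to 3783 in steady 900. Of its markers 6 were called higher, as were 5 of 9 fibroblast markers, while Edn1 was called lower. In the same comparison 6 of 9 leukocyte markers (sum 1304 to 1394, against 1898 to 2004) and 3 of 9 endothelial markers were called lower, 0 higher. Edn1 and Ece1 were called lower too, as were 8.83% of all genes, with 1373 of 14506 higher. At 48 h after the step from 300 to 600 Edn1 was called higher than in steady 600. There 7 of 8 smooth muscle and pericyte markers were called lower and 0 higher. Higher and lower were 1 and 5 of 9 fibroblast, 1 and 0 of 9 leukocyte, 4 and 3 of 9 endothelial and 0 and 7 of 10 principal cell markers. Of all genes, 9.47% were called higher and 1812 of 14506 lower.

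Endothelial cells are a known source of both endothelin-1 and its converting enzyme, and 9 of 10 listed endothelial markers were measured. Their sum was 3470 to 3555 in steady 300, 3767 to 4184 in steady 600 and 3947 to 4167 in steady 900, with Pecam1 at 9.44, 9.46 and 9.44. In steady 900 against steady 300, 2 of the 9 were called higher and 4 lower, beside 20.2% and 22.3% of all genes. After the step from 300 to 600 the endothelial sum was 3032 to 4494 at 3 h, 2541 to 2741 at 12 h, 2681 to 2855 at 24 h and 4214 to 4329 at 48 h. At 12 h 6 of the 9 markers and at 24 h 7 of the 9 were called lower than in steady 300, beside 22.6% and 13.0% of all genes. At 48 h 7 were called higher than at 24 h, beside 1.88% of all genes. Ece1 was also low at 12 and 24 h and higher at 48 h, and Edn1 had its lowest level after this step at 12 h. After the step from 600 to 900 the sum was 3292 to 3522 at 12 h and 3566 to 3969 at 24 h, against 3767 to 4184 in steady 600. Of the markers, 6 were called lower at 12 h and 5 at 24 h, beside 25.3% and 14.7% of all genes. The part of these markers in the courses of Edn1 and Ece1 was not tested.

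**Figure D4:**
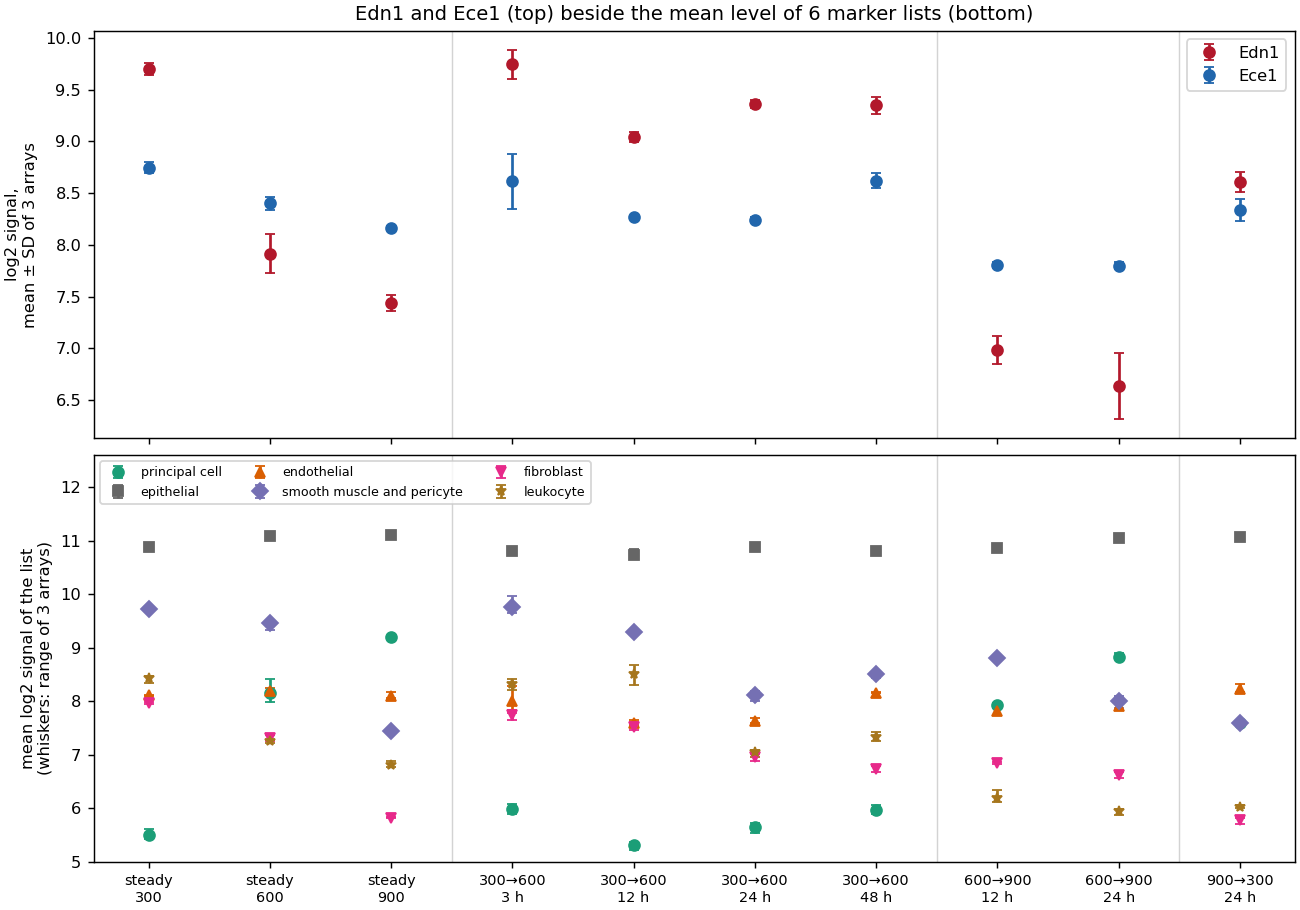
Group means ± SD of Edn1 and Ece1 (top) and the mean log2 signal of 6 marker lists with its range over 3 arrays (bottom) in the 10 groups. Levels of different genes or lists are not comparable with each other, only the groups of 1 gene or list. The leukocyte list averages 6.82 in steady 900 and 8.43 in steady 300, and the endothelial list 8.11 in both.

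The genes whose group means were most like those of the 2 genes were taken from those with a span of at least 1 log2 unit, 3951 candidates for Edn1 and 3952 for Ece1, by Pearson correlation over the 10 group means. For Edn1 these were Slc4a4, a sodium bicarbonate cotransporter gene (r = 0.97), Ptprz1, a receptor tyrosine phosphatase gene (0.97), and Ddah1, the gene of an enzyme that breaks down an inhibitor of nitric oxide synthases (0.97). The most opposite were Wnt9b, a Wnt ligand gene (r = −0.99), Peli2 (−0.97) and Rasl10a (−0.97). Wnt9b averaged 6.32 in steady 300, 7.45 in steady 600 and 7.90 in steady 900. Of the candidates, 95 correlated with Edn1 above 0.9, so the 3 named are the first of many.

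For Ece1 the most alike were Pakap (r = 0.95), Bmp2k (0.94) and Rhoj (0.94), and the most opposite Il15, the gene of interleukin 15 (−0.95), Ppm1d (−0.95) and Pacsin2 (−0.93). Above 0.9 there were 20 candidates. The ranking depended on the measure: by Spearman correlation 1 of the 3 genes stayed among the first 3 on each side for both Edn1 and Ece1. The points share arrays, and no test was made.

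**Figure D5:**
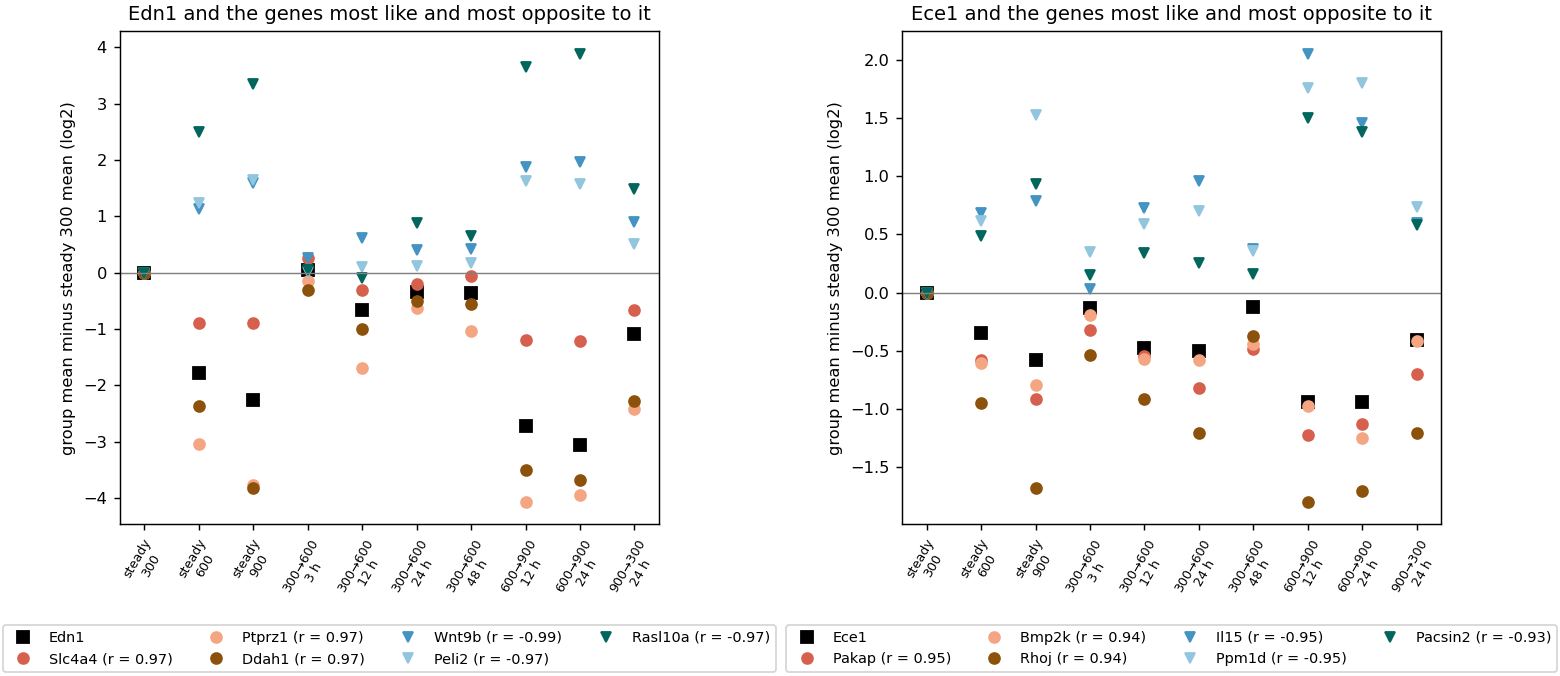
Group means minus the steady 300 mean (log2) of Edn1 (left) and Ece1 (right) as black squares, with the 3 genes of highest correlation over the 10 groups as circles and the 3 of lowest correlation as triangles. Slc4a4 (r = 0.97) lies below 0 in the same groups as Edn1, and Wnt9b (r = −0.99) lies above 0 in every group set against steady 300.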

How the data were processed

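Total RNA of 30 samples was labelled with a whole-transcript kit and hybridised to Affymetrix arrays, per the labels' protocols. The deposited values are log2 signals that the authors made with RMA, per the submitters' processing notes, with no version or software named there. RMA corrects background, brings the arrays to a common scale and combines probes into probe sets, and values at either end of its scale are compressed, so folds can be understated.

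Of 29170 probe sets, 15310 carried 1 gene symbol in the platform annotation and 323 carried several, which were left out. The brightest such probe set by mean stood for each of 14506 genes. Groups follow the sample titles. All 30 arrays entered 1 limma fit (lmFit on group means, then eBayes; limma 3.58.1, R 4.3.3), with Benjamini-Hochberg adjustment over the 14506 genes and a threshold of 0.05. The differences between steps were contrasts of the same fit. The fit was tested on simulated data. The precision is limited by the number of arrays, 3 in each group.

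The endothelin system genes, the lists of pathway genes and markers and the tests were chosen with earlier results of these data known. Pathway genes given with values are the 5 of each list with the smallest moderated F p-value, and genes alike in pattern are the 3 on each side of the Pearson correlation over group means, without symbols beginning with LOC, RGD or MGC. Listed symbols that the annotation gave no probe set (Ednra, Ednrb, Kel, Vezf1, Nfatc1 and Vwf among them) were not analysed. Alternatives were quantile, median and cyclic loess normalization, a filter on the dimmest 30% of genes, mean probe sets, array weights, trend and robust eBayes, fits of the compared arrays alone, a replicate block, leaving out the arrays numbered 3 and 9, and leaving out each array in turn.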

Additional observations from a re-analysis of the deposited data

Results flagged for a closer look

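The change of Edn1 at 24 h after the step from 600 to 900 mosmol/kg differed from its change at 24 h after the step from 300 to 600 mosmol/kg. The difference, tested as a contrast of the limma fit, was −0.94 on the log2 scale (adjusted p = 0.000108), and Edn1 was lower than in the steady group of departure in 3 of 3 arrays after either step. Under the 22 alternatives of this contrast it lay between −1.10 and −0.78, with adjusted p-values between 4.71e-06 and 0.00428.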

How the results depend on the processing

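Of the 38 comparisons of Edn1 and Ece1, those of both genes in steady 600 and steady 900 against steady 300, at 12 and 24 h after the step from 600 to 900 against steady 600, at 12 h after the step from 300 to 600 against steady 300 and after the return against steady 300 kept direction and call under every alternative run. With quantile normalization Ece1 at 3 h against steady 300 was 0.042, Edn1 at 24 h against 12 h after the step to 600 was 0.27 (no longer called) and Ece1 at 48 h against steady 600 was 0.22 (called). With cyclic loess the same Ece1 value at 3 h was 0.055, the Edn1 value at 24 h against 12 h was 0.25 (lost) and Ece1 in steady 900 against steady 600 was −0.19 (lost). Median centring gave −0.21 for that Ece1 difference (lost), −0.31 for Edn1 at 24 h against steady 300 (lost), 0.26 for Ece1 at 48 h against steady 600 (called) and 0.016 for Ece1 at 24 h against 12 h, a turned sign. Array weights gave −0.23 (called) for Ece1 and −0.025 for Edn1 at 3 h, 0.0011 for Edn1 at 48 h against 24 h, and calls for Ece1 at 48 h against steady 600 (0.20), at 48 h against steady 300 (−0.13) and after the return against steady 900 (0.14). Without the arrays numbered 3 and 9, Ece1 at 3 h was −0.26 (called), Edn1 at 3 h −0.0092, Edn1 at 48 h against 24 h 0.046, and calls were lost for Edn1 at 24 h against 12 h (0.28), 24 h against steady 300 (−0.32) and 48 h against steady 300 (−0.28) and for Ece1 in steady 900 against steady 600 (−0.19). With only the compared arrays, Ece1 at 48 h against steady 600 was called (0.22), and calls were lost for Ece1 at 12 h against 3 h (−0.35) and Edn1 at 24 h against 12 h after the step to 900 (−0.35). Leaving out each array in turn changed a call or sign for Ece1 in steady 900 against steady 600 (−0.26 to −0.20), Edn1 at 3 h (−0.036 to 0.10), Ece1 at 3 h (−0.29 to −0.033), Edn1 at 24 h (−0.37 to −0.31) and 48 h (−0.39 to −0.30) against steady 300, Edn1 at 24 h against 12 h (0.30 to 0.35), Ece1 (0.34 to 0.41) and Edn1 (−0.047 to 0.033) at 48 h against 24 h, and Edn1 (−0.51 to −0.19) and Ece1 (−0.017 to 0.018) at 24 h against 12 h after the step to 900. The cause of these changes was not tested. Counts of called genes moved by over 1.5 times with array weights, to 4994 (3242 without weights) at 24 h and 5130 (3128) at 48 h against steady 300, 975 (405) at 48 h against 24 h, 4264 (2654) at 24 h after the step to 900 against steady 900, and 3647 (1947) and 3468 (1877) for the differences between steps at 12 and 24 h, the second of which was 2976 with only the compared arrays. The labels do not tell whether the replicate numbers pair the samples. Deviations of same-numbered arrays correlated between −0.13 and 0.24, with a median of 0.01 and 11 of 114 pairs above 0.1. These values do not settle whether some groups were paired. With a replicate block Edn1 in steady 900 against steady 300 was −2.26 and Ece1 −0.58, and the block changed no call of either gene. Each group has 3 arrays of 1 probe set per gene, so differences of Ece1 under about 0.2 were not resolved.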
